A study of Mus musculus with 11 samples.

Results

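The platelet-derived growth factors (PDGFs) are secreted dimers of the A, B, C and D chains, encoded by Pdgfa, Pdgfb, Pdgfc and Pdgfd, and their receptors are the receptor tyrosine kinases encoded by Pdgfra and Pdgfrb. The A and B chains are processed inside the cell, whereas the C and D chains are secreted as latent proteins and are released by proteases outside it. In the brain, PDGF-B from endothelial cells acts on PDGFR-β of pericytes, the mural cells of capillaries, and PDGF-A acts on PDGFR-α of oligodendrocyte precursor cells. The 6 genes were taken by symbol from the 32285 genes of the feature list, and all 6 were found. In the GRCm38 assembly with the GENCODE M21 gene models, Pdgfa lies at chr5:138976014-138997370 (minus strand), Pdgfb at chr15:79995874-80014977 (minus), Pdgfc at chr3:81036416-81214040 (plus), Pdgfd at chr9:6168584-6378850 (plus), Pdgfra at chr5:75152292-75198215 (plus) and Pdgfrb at chr18:61045150-61085061 (plus).

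Single-cell RNA sequencing (10x Genomics 3′ chemistry) was performed on the right brain of 11 mice after middle cerebral artery occlusion and reperfusion (MCAO/R), a model of ischemic stroke with restored flow, or after sham surgery. There were 3 sham + WT libraries (numbered 1, 2 and 3), 3 sham + Lrg1-/- libraries (1, 2 and 5), 2 MCAO/R + WT libraries (1 and 2) and 3 MCAO/R + Lrg1-/- libraries (1, 2 and 5). Wild-type (WT) mice were C57BL/6 males of 8 to 10 weeks, and Lrg1-/- mice carried a conventional knockout of Lrg1, the gene of a secreted leucine-rich glycoprotein, after 4 backcross generations to C57BL/6N, and are given as 3 months old. Genotype and this difference in age and any in substrain cannot be told apart. The occlusion lasted 1 hour, and the methods list reperfusion for 1, 6, 12 and 24 hours without saying which applied to these libraries, while the discussion names 1 hour for the knockout data as a whole. The comparisons asked which cell types were the sources and receivers of PDGF signals and how genotype and MCAO/R changed them.

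Of 155804 barcodes, 132437 cells passed the filters and 125449 remained after removal of doublets. Total unique molecular identifiers (UMIs) per library ran from 37159497 to 171813031. Median UMIs per cell were 9377 and 11336.5 in the MCAO/R + WT libraries and 3075 to 6180 in those of MCAO/R + Lrg1-/-. In all cells together Lrg1 stood at 1.64 to 5.92 CPM (counts per 1000000 UMIs) in sham + WT, at 137 and 118 CPM in MCAO/R + WT, and at 0 in 5 of the 6 Lrg1-/- libraries, with 0.00662 CPM in MCAO/R + Lrg1-/- replicate 5. Replicates 1 and 2 of MCAO/R + Lrg1-/- held Xist at 355 and 467 CPM and Ddx3y, a Y-linked gene, at 0.340 and 0.444 CPM, whereas the other 9 libraries held Xist at 1.18 CPM or less and Ddx3y at 105 to 236 CPM. The first is the pattern of female mice and the second that of males. In contrasts with MCAO/R + Lrg1-/-, sex therefore cannot be fully told apart from genotype or from MCAO/R. Calls that involve that group were therefore also made without these 2 libraries, which leaves it with replicate 5 alone, so that its spread in that fit is assumed to be that of the other groups. Endothelial cells of Lrg1-/- libraries also held more RNA of red blood cells and choroid plexus: the summed level of 8 red blood cell markers in them averaged 1188.9 CPM in sham + WT, 51951.5 in sham + Lrg1-/-, 1139.5 in MCAO/R + WT and 32417.2 in MCAO/R + Lrg1-/-, and that of 9 choroid plexus epithelial markers 496, 12706.1, 206 and 8089.2 CPM.

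The 125449 cells fell into 37 clusters, of which 109992 cells were given 1 of 17 cell type names from marker genes and 15457 cells in 4 clusters stayed unnamed. None of the 10 endothelial or 8 pericyte marker genes was at 0 in its own cell type in any group. Within a cell type the groups held different clusters: the cluster with the most endothelial cells of sham + WT was 11 (3299 cells), of sham + Lrg1-/- 10 (1191), of MCAO/R + WT 14 (2365) and of MCAO/R + Lrg1-/- 8 (2553), and for microglia the leading clusters were 0 (9086), 12 (1455), 2 (3812) and 5 (4205) in the same order. In oligodendrocytes 6337 cells of MCAO/R + Lrg1-/- lay in cluster 3, which held 128 to 465 cells of each other group. A difference between groups within a cell type therefore includes a difference between these clusters. For each cell type, UMIs were summed within libraries that held 20 or more of its cells. Levels between cell types are CPM, averaged over the group means. They are not per length, so that levels of different genes were not compared. Cell types are clusters of the same cells, and differences between them are described without a test.

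Among the ligands, Pdgfa was highest in vascular smooth muscle cells (310 CPM, libraries from 137 to 521), followed by oligodendrocytes (154 CPM), pericytes (142), oligodendrocyte precursor cells (113), ciliated ependymal cells (86.8) and choroid plexus epithelial cells (64.9). Pdgfb was highest in endothelial cells (250 CPM, from 157 to 359) and microglia (186 CPM, from 73.2 to 307), and then came B cells with 76.0 CPM, with 67.2 in monocytes and monocyte-derived macrophages, 56.8 in neutrophils and 55.8 in T and NK cells. Pdgfc was led by border-associated macrophages (56.2 CPM), astrocytes (47.2), vascular smooth muscle cells (44.4) and oligodendrocytes (32.8). Pdgfd was highest in endothelial cells (355 CPM, from 182 to 552), ahead of vascular smooth muscle cells (177), fibroblasts (153), choroid plexus epithelial cells (103) and astrocytes (91.1). For these 4 genes, each cell type in the order overlapped the next in its range over libraries. The vessel wall thus held the highest level of 3 of the 4 ligands, and each ligand had its own order of sources.

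The receptors were high in fewer cell types. Pdgfra stood at 322 CPM in oligodendrocyte precursor cells and 301 CPM in fibroblasts, whose ranges overlapped, and the next cell type, choroid plexus epithelial cells, stood at 16.9 CPM with no overlap. Pdgfrb stood at 806 CPM in pericytes, above the whole range of vascular smooth muscle cells (200 CPM), which were followed by fibroblasts (139), astrocytes (51.6) and oligodendrocyte precursor cells (9.21). In astrocytes the level of Pdgfrb lay below every fibroblast library and above every library of oligodendrocyte precursor cells. The heat map of levels by cell type shows both patterns.

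**Figure D1:**
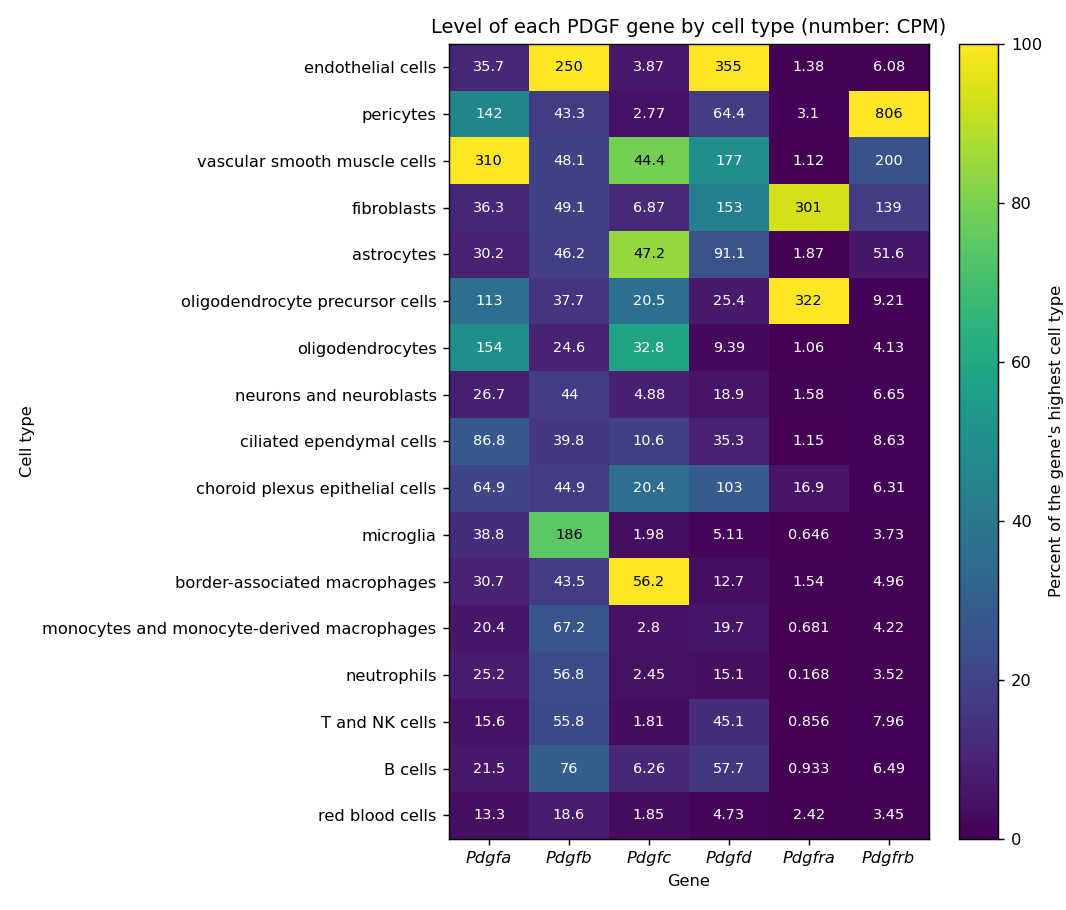
Level of the 6 PDGF genes (columns) in 17 named cell types (rows). The number in a field is the mean over group means in CPM and the color is that level as a percent of the gene's highest cell type. Pdgfb and Pdgfd peak in endothelial cells (250 and 355 CPM), Pdgfrb in pericytes (806 CPM), and Pdgfra in oligodendrocyte precursor cells (322 CPM) and fibroblasts (301 CPM).

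The share of a gene's UMIs that came from a cell type follows both its level and its number of cells. Endothelial cells supplied 82.3% of all Pdgfd UMIs in sham + WT and 81.0% in MCAO/R + WT, but 64.7% in sham + Lrg1-/- and 60.3% in MCAO/R + Lrg1-/-. For Pdgfb, endothelial cells and microglia supplied 46.3% and 45.4% in sham + WT, 47.6% and 20.2% in sham + Lrg1-/-, 48.8% and 23.9% in MCAO/R + WT, and 27.8% and 20.3% in MCAO/R + Lrg1-/-. The endothelial share was thus lower only in the last group, where it ran from 9.58% to 37.7% over the libraries, and the microglial share was lower than in sham + WT in the other 3 groups. The microglial share leaves out unnamed cluster 4, which held Pdgfb at 201 CPM. That cluster had 2495 cells of MCAO/R + WT and 2775 of MCAO/R + Lrg1-/-, against 156 of sham + WT, and its share is given under other observations. Pericytes supplied 50.9% of Pdgfrb UMIs in sham + WT and 57.3% in MCAO/R + WT, against 12.3% and 15.7% in the Lrg1-/- groups, where vascular smooth muscle cells supplied 55.3% and 41.0%. Pericytes numbered 264 to 628 per WT library and 28 to 184 per Lrg1-/- library. Fewer captured pericytes and fewer pericytes in the tissue cannot be told apart.

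Within the 21502 endothelial cells, sub-clusters were named from markers of vessel zones. In sham + WT, Pdgfd averaged 848 CPM in arterial sub-cluster 3, 391 in capillary sub-cluster 2, 411 in venous sub-cluster 8 and 75.2 in arterial sub-cluster 9, so that the 2 arterial sub-clusters held its highest and its lowest level of the named zones. Pdgfb of the same group stood at 381, 298, 152 and 414 CPM in the same order, lowest in the venous cells. Pdgfa was lowest in capillary cells (17.1 CPM) and stood at 78.6, 45.8 and 48.3 CPM in arterial 3, venous 8 and arterial 9. The sham + WT level of Pdgfd in arterial sub-cluster 9 rests on 28, 3 and 9 UMIs, at 146, 27.0 and 52.5 CPM. Of the 8 listed arterial markers 3 met the naming limits in sub-cluster 9 and 8 in sub-cluster 3. Cells of sub-cluster 9 also held fewer UMIs. In sham + WT replicate 1, Pdgfb at 374 CPM was 72 UMIs in 111 cells of sub-cluster 9. In sub-cluster 3, 373 CPM was 1541 UMIs in 349 cells. The part of this depth in the lower Pdgfd of sub-cluster 9 was not tested. The plot by endothelial sub-cluster shows that Pdgfb of arterial sub-cluster 3 was between 373 and 423 CPM in the 6 sham libraries and between 199 and 251 CPM in the 5 MCAO/R libraries. In venous sub-cluster 8 it was not lower with MCAO/R in WT mice, at 149 to 155 CPM in sham and 134 and 185 CPM after MCAO/R, and was at 172 to 251 and 115 to 159 CPM in Lrg1-/- mice. Pdgfd of venous sub-cluster 8 averaged 411 ± 76.6 CPM (SD, n = 3) in sham + WT, 311 ± 37.8 (n = 3) in sham + Lrg1-/-, 228 ± 47.4 (n = 2) in MCAO/R + WT and 125 ± 24.2 (n = 3) in MCAO/R + Lrg1-/-. The order was not the same in every sub-cluster. In arterial sub-cluster 3 Pdgfd averaged 848 CPM in sham + WT and 521 in sham + Lrg1-/-, but after MCAO/R it was 853 and 854 CPM in WT and from 480 to 935 CPM in Lrg1-/-. In arterial sub-cluster 9 the means of WT and Lrg1-/- were 75.2 and 98.9 CPM in sham and 90.0 and 98.7 CPM after MCAO/R. The value of 98.7 CPM comes from 1 library. In sub-cluster 7, without a zone name, they were 563 and 560 CPM in sham and 520 and 364 CPM after MCAO/R. Sub-clusters 0, 1, 4 and 5, also without a zone name, averaged 530, 300, 434 and 306 CPM in MCAO/R + WT. In MCAO/R + Lrg1-/- they averaged 299, 114, 259 and 133 CPM, without overlap. In sham they averaged 535, 300, 404 and 360 CPM in WT, and 435, 77.9, 475 (1 library) and 141 CPM in Lrg1-/-. In sub-cluster 6, which held 1417 cells of MCAO/R + Lrg1-/-, the means after MCAO/R were 174 CPM in WT and 148 CPM in Lrg1-/-. The libraries did not overlap. Of these 1417 cells 1287 came from replicate 2, which held Xist, and of 453 WT cells 417 came from replicate 1. Sub-cluster 1, with Ttr, Folr1 and Hba-a1 among its leading genes, held 1096 cells of sham + Lrg1-/- and 1241 of MCAO/R + Lrg1-/-. It held 235 cells of sham + WT and 95 of MCAO/R + WT. Its part in the Pdgfd difference of all endothelial cells was not tested. These sub-cluster levels were not tested, and of the 2661 cells of capillary sub-cluster 2 only 36 came from MCAO/R + WT and 33 from MCAO/R + Lrg1-/-, against 2211 from sham + WT and 381 from sham + Lrg1-/-.

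**Figure D2:**
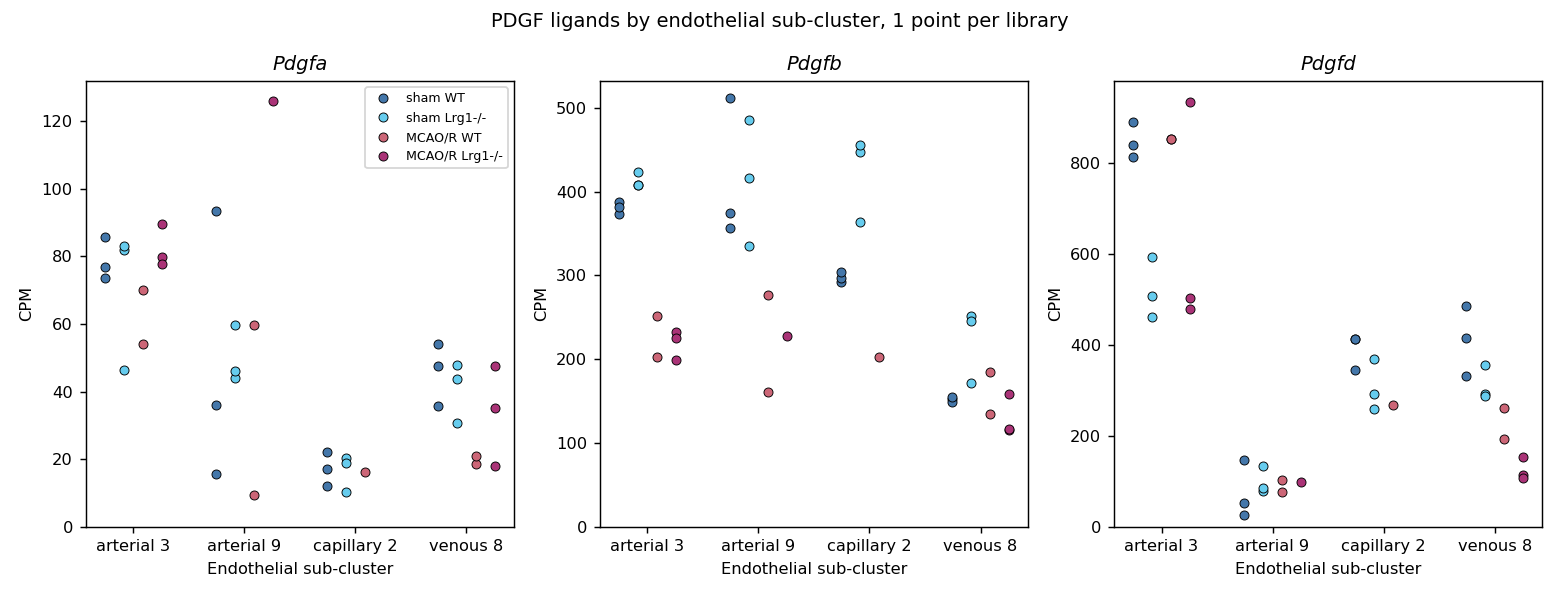
CPM of Pdgfa, Pdgfb and Pdgfd (vertical axes) in the named endothelial sub-clusters (horizontal axes), with 1 point per library with at least 20 cells and colors for the 4 groups. Arterial sub-cluster 3 holds the highest Pdgfd, and its Pdgfb is 373 to 423 CPM in sham libraries and 199 to 251 CPM in MCAO/R libraries.

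Groups were then compared with edgeR's quasi-likelihood test on the summed counts, with all groups of a cell type in 1 fit and Benjamini-Hochberg adjustment over all genes of that cell type. A gene was called at an adjusted p under 0.05 and a change of more than 0.25 on the natural log scale. After MCAO/R, Lrg1-/- differed from WT in 18 of 71 tested pairs of PDGF gene and cell type, 10 higher and 8 lower (25.4%). Over all genes and the same cell types 8.58% of tests were called higher and 7.19% lower. After sham surgery 17 of 64 pairs were called between genotypes, 13 higher and 4 lower, against 5.88% and 5.01% over all genes. MCAO/R changed 8 of 68 pairs in WT mice, 3 up and 5 down, against 2.71% and 2.59%, and 5 of 69 pairs in Lrg1-/- mice, all 5 down, against 3.89% up and 3.38% down. Without MCAO/R + WT replicate 2 the MCAO/R genotype contrast called 5 pairs, and without the 2 libraries that hold Xist 10 pairs, and with cells thinned to 1000 UMIs the 4 contrasts called 6, 2, 0 and 3 pairs. Of the 18 pairs, 8 were still called without the Xist libraries, Pdgfa of endothelial cells (1.41) and microglia (1.20), Pdgfb of oligodendrocytes (2.69), vascular smooth muscle cells (1.94) and ciliated ependymal cells (1.61), Pdgfd (-2.13) and Pdgfra (-1.86) of choroid plexus epithelial cells and Pdgfra of oligodendrocytes (2.41). The other 10 were lost, among them Pdgfb of microglia (0.64), neurons and neuroblasts (1.95) and pericytes (1.78), Pdgfc of choroid plexus epithelial cells (-0.97) and Pdgfd of border-associated macrophages (-1.20) and monocytes (-2.83). The 5 calls with MCAO/R in Lrg1-/- mice were still made, Pdgfb of endothelial cells (-1.11), microglia (-0.73), monocytes (-2.04) and choroid plexus epithelial cells (-1.74) and Pdgfd of microglia (-1.72). Some pairs rest on a group with 1 library, whose spread is assumed to be that of the others. They number 7 of the 71 and 3 of the 64 pairs of the genotype contrasts, 6 of the 68 and 6 of the 69 pairs with MCAO/R in WT and Lrg1-/- mice and 4 of the 61 pairs of the interaction, and none was called. Without a single sham library the sham genotype contrast called 4 to 14 pairs. Many of the pairs are cell types where the gene was low. The main cell types of each gene are those with at least 20% of its highest level. Restricted to them, the counts were 7 of 25 (2 higher, 5 lower), 4 of 21 (1 higher, 3 lower), 2 of 23 (1 up, 1 down) and 3 of 23 (all down). The cell types of these calls called many genes in either direction. Between genotypes after MCAO/R the shares of all genes ran from 15.8% (pericytes) to 34.6% (oligodendrocytes). In sham they ran from 4.64% (pericytes) to 22.0% (endothelial cells). With MCAO/R in WT mice they were 15.5% (microglia) and 16.7% (oligodendrocytes). In Lrg1-/- mice they ran from 11.7% (endothelial cells) to 28.0% (microglia).

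Pdgfb, the ligand that holds pericytes on the vessel, was lower after MCAO/R in endothelial cells of Lrg1-/- mice. After TMM adjustment it stood at 264, 298 and 299 CPM in the sham + WT libraries and at 313, 361 and 302 CPM in sham + Lrg1-/-. After MCAO/R it stood at 201 and 206 CPM in WT and at 197, 206 and 151 CPM in Lrg1-/-. Every MCAO/R library was below every sham library. The fall was -0.82 ± 0.14 (log2, SE) in Lrg1-/- mice (edgeR adjusted p = 0.00521) and -0.49 ± 0.16 in WT mice (adjusted p = 0.0717), and only the first was called. In endothelial cells 11.7% of the 16921 tested genes were called in the first contrast and 10.4% in the second. Between genotypes, Pdgfb of endothelial cells differed by 0.18 ± 0.14 in sham (adjusted p = 0.374) and by -0.14 ± 0.16 after MCAO/R (adjusted p = 0.522). The fall in Lrg1-/- endothelium was called in all 26 alternative fits (other scalings, filters, clusterings and left-out libraries), from -0.69 to -1.11. In the fit without the 2 libraries that hold Xist it was -1.11, with 1 library left in the MCAO/R + Lrg1-/- group.

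In microglia, the resident macrophages of the brain, Pdgfb moved in the same direction with MCAO/R. It stood at 191, 202 and 178 CPM in sham + WT, 286, 287 and 240.1 in sham + Lrg1-/-, 134 and 75.6 in MCAO/R + WT and 134, 222 and 166 in MCAO/R + Lrg1-/-. The MCAO/R libraries lay below the sham libraries of their own genotype without overlap, and the MCAO/R genotypes overlapped. The fall was -0.86 ± 0.25 in WT mice (edgeR adjusted p = 0.0319) and -0.64 ± 0.22 in Lrg1-/- mice (adjusted p = 0.0436), where 15.5% and 28.0% of 17048 genes were called. After MCAO/R, microglial Pdgfb was higher in Lrg1-/- by 0.73 ± 0.25 (adjusted p = 0.0378), against 32.1% of genes called. These 3 calls did not hold in every fit. Of 26 alternative fits, the fall in WT mice was lost in 8, that in Lrg1-/- mice in 10 and the genotype difference in 11. Without MCAO/R + WT replicate 2 the fall in WT mice was -0.50 (adjusted p = 0.316) and the genotype difference 0.37 (adjusted p = 0.361), and the fall in Lrg1-/- mice was lost without any of 5 single libraries, with -0.49 (adjusted p = 0.0746) without MCAO/R + Lrg1-/- replicate 1. With the replicate number as a block in the fit (replicate block), the values of the fall in WT mice, the genotype difference and the fall in Lrg1-/- mice were -0.91 (adjusted p = 0.106), 0.79 (adjusted p = 0.0774) and -0.63 (adjusted p = 0.0932). Cells of unnamed cluster 4, most of them from MCAO/R libraries and with Pdgfb at 201 CPM, were not counted as microglia. The part of this in the falls was not tested.

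Monocytes and monocyte-derived macrophages held Pdgfb at 87.8, 105 and 99.1 CPM in sham + Lrg1-/- and at 55.3, 27.6 and 23.1 CPM in MCAO/R + Lrg1-/-, with no overlap. The fall was -1.57 ± 0.33 (edgeR adjusted p = 0.00939), in a contrast in which 12.1% of the 8970 genes tested were called. It was -1.45 (adjusted p = 0.0535) without MCAO/R + Lrg1-/- replicate 2 and -0.86 (adjusted p = 0.201) with clusters made without batch correction. In WT mice the difference was -0.96 ± 0.38 (adjusted p = 0.226), from 98.2, 104 and 71.8 CPM to 58.4 and 28.2 CPM. The level that RNA of other Pdgfb sources would bring to these cells, computed from the markers of those sources, was 69.6 CPM beside 95.3 CPM measured in sham + Lrg1-/- and 36.9 beside 35.5 CPM in MCAO/R + Lrg1-/- (both as plain CPM). The plot of values by library shows the main pairs of gene and cell type.

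**Figure D3:**
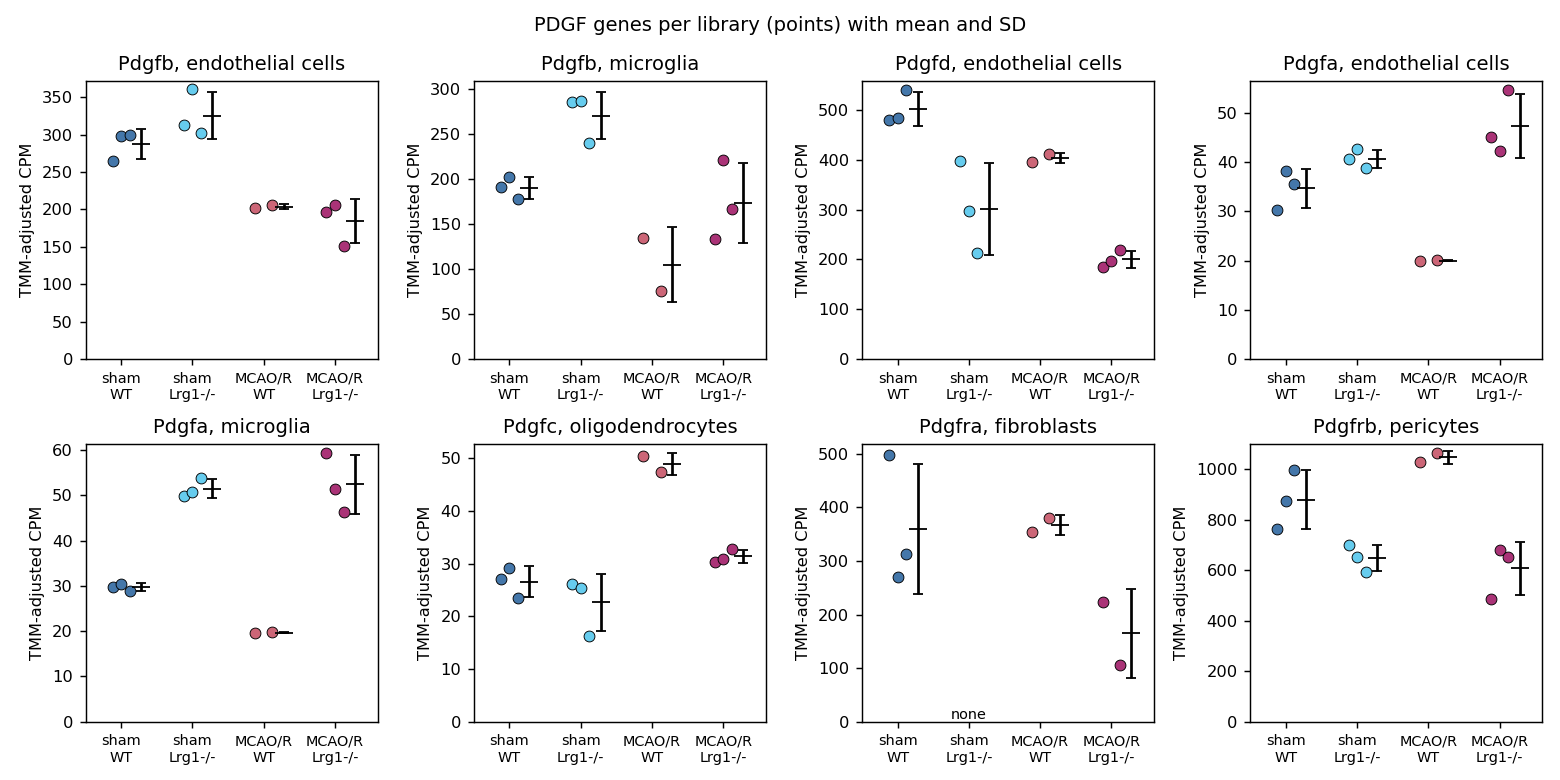
TMM-adjusted CPM (vertical axes, from 0) of PDGF genes in 8 pairs of gene and cell type. Points are libraries colored by group, and the bar beside them is the mean with its SD. Pdgfb of endothelial cells is at 151 to 206 CPM in the 5 MCAO/R libraries and at 264 to 361 CPM in the 6 sham libraries, and Pdgfrb of pericytes is at 486 to 698 CPM in the 6 Lrg1-/- libraries and at 763 to 1063 CPM in the 5 WT libraries.

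Outside its sources, Pdgfb was called higher in Lrg1-/- mice in cell types where it was low in WT mice. In oligodendrocytes it stood at 16.6, 9.97 and 8.41 CPM in sham + WT and at 27.0, 41.9 and 66.7 CPM in sham + Lrg1-/-, and at 10.2 and 4.75 CPM in MCAO/R + WT and 32.1, 24.7 and 47.1 CPM in MCAO/R + Lrg1-/-. The differences were 1.91 ± 0.41 (edgeR adjusted p = 0.0152) and 2.25 ± 0.46 (adjusted p = 0.00478), in contrasts that called 12.4% and 34.6% of the 16329 genes of oligodendrocytes. The same call was made in neurons and neuroblasts, vascular smooth muscle cells and ciliated ependymal cells in both genotype contrasts, in pericytes after MCAO/R and in choroid plexus epithelial cells after sham surgery. These 10 calls, the oligodendrocytes included, were all higher in Lrg1-/- and ran from 1.35 to 2.47. In either direction, 561 of 14157 genes of neurons and neuroblasts were called in sham and 1060 after MCAO/R. In vascular smooth muscle cells 1045 and 1903 of 13447 were called, and in ciliated ependymal cells 508 and 1224 of 13388. Pericytes called 15.8% of genes after MCAO/R, and choroid plexus epithelial cells 20.6% in sham. Many of the 10 calls were lost in some of the 26 alternative fits. In vascular smooth muscle cells the sham call was lost in 13 (0.58 to 1.61) and the call after MCAO/R in 5, in neurons and neuroblasts 10 and 2, in ciliated ependymal cells 8 and 9, in oligodendrocytes 5 and 1, in pericytes 5 and in choroid plexus epithelial cells 1. The level of Pdgfb that RNA of its sources would bring was computed for each library from the markers of the main source cell types: the marker sum in the receiving cell type over that in the source, times the source's Pdgfb level, added over sources. In sham + Lrg1-/- oligodendrocytes the computed level was 54.1 CPM and the measured level 44.3 CPM, and in MCAO/R + Lrg1-/- 42.0 and 34.7 CPM. In neurons and neuroblasts they were 113 and 97.2 CPM in sham + Lrg1-/-, and 50.4 and 46.5 CPM in MCAO/R + Lrg1-/-. In WT oligodendrocytes, where the computed level came first as well, they were 13.3 and 11.6 CPM (sham) and 9.36 and 7.87 CPM (MCAO/R). In endothelial cells and microglia the calculation gave far less than was measured, with 24.2 CPM against 183 CPM in MCAO/R + Lrg1-/- endothelial cells and 4.50 against 176 CPM in microglia. In the other cell types counted as sources it came near the measured level or above it in some groups, with 92.4 against 89.7 CPM in sham + WT B cells, 86.3 against 60.4 CPM in sham + Lrg1-/- T and NK cells and 44.8 against 39.0 CPM in MCAO/R + Lrg1-/- neutrophils. It counts a marker shared by several sources more than once and is a calculation, not a test.

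Other Pdgfb calls outside its main sources were lower values with MCAO/R. In pericytes of WT mice it stood at 65.8, 30.8 and 32.1 CPM in sham and at 18.2 and 12.4 CPM after MCAO/R (-1.50 ± 0.34, edgeR adjusted p = 0.0281), where 2.5% of genes were called, and the computed levels were 40.0 and 20.3 CPM. This call was lost without sham + WT replicate 1, MCAO/R + WT replicate 1 or MCAO/R + WT replicate 2, with adjusted p up to 0.328, and in 7 of 26 alternatives in all, with -0.26 (adjusted p = 0.681) at the halved cluster resolution. In border-associated macrophages of WT mice Pdgfb stood at 45.6, 55.1 and 51.1 CPM in sham and at 23.5 and 17.2 CPM after MCAO/R (-1.28 ± 0.30, adjusted p = 0.0150), and in choroid plexus epithelial cells of Lrg1-/- mice it was lower after MCAO/R by 1.32 on the log2 scale (SE 0.27, adjusted p = 0.0189), where 3.35% of genes were called. The call in border-associated macrophages was lost in 4 of 25 alternatives and that in choroid plexus epithelial cells in 5 of 26.

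**Figure D4:**
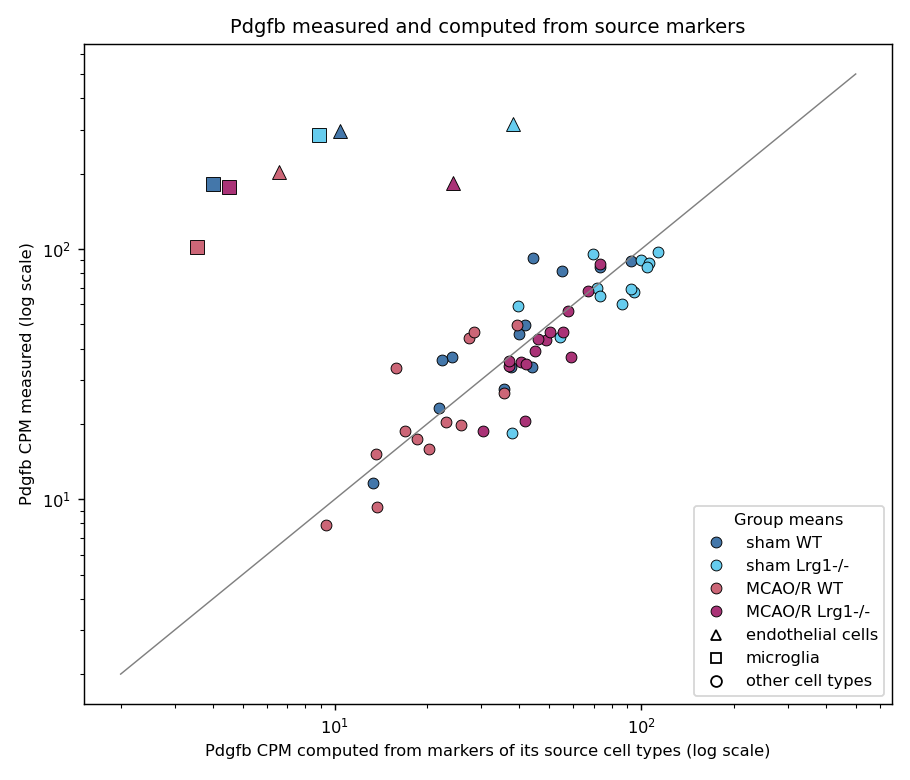
Measured Pdgfb (vertical axis, CPM, log scale) against the Pdgfb computed from markers of its source cell types (horizontal axis, CPM, log scale). Each point is the mean of a cell type in a group (color), triangles are endothelial cells, squares microglia and circles other cell types, and the line marks equality. Most cell types lie near the line, such as sham + Lrg1-/- oligodendrocytes at 54.1 computed and 44.3 measured, and endothelial cells and microglia lie far above it.

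Pdgfd, a ligand of PDGFR-β, was lower in Lrg1-/- endothelial cells. It stood at 481, 485 and 541 CPM in sham + WT and at 397, 297 and 212 CPM in sham + Lrg1-/-. After MCAO/R it stood at 397 and 412 CPM in WT and at 186, 198 and 219 CPM in Lrg1-/-. In each pair of groups the Lrg1-/- libraries lay below the WT libraries. The genotype difference was -0.73 ± 0.19 in sham (edgeR adjusted p = 0.0200) and -1.01 ± 0.21 after MCAO/R (adjusted p = 0.00626), a fall to 0.602 and 0.497 of the WT level, where 22.0% and 26.6% of endothelial genes were called. The difference after MCAO/R was called in all 25 alternatives chosen at the outset, from -0.77 to -1.10, and was -0.93 (adjusted p = 0.0633) without the 2 libraries that hold Xist. That in sham was lost without sham + Lrg1-/- replicate 2, sham + WT replicate 2 or sham + WT replicate 3, with adjusted p up to 0.0791, and was -0.62 (adjusted p = 0.152) with the replicate block. Over 26 alternatives the sham difference ran from -1.03 to -0.41. MCAO/R itself was not called for endothelial Pdgfd in WT (-0.31 ± 0.21, adjusted p = 0.418) or Lrg1-/- mice (-0.59 ± 0.19, adjusted p = 0.0660). The summed level of 10 endothelial markers in these cells averaged 21253.4, 17264.3, 18593.7 and 13560.6 CPM in sham + WT, sham + Lrg1-/-, MCAO/R + WT and MCAO/R + Lrg1-/-. The part of these shifts in the Pdgfd difference was not tested.

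In the other sources of Pdgfd the direction was the same except in astrocytes. Choroid plexus epithelial cells held 82.9, 134 and 118 CPM in sham + WT, 50.5, 54.9 and 60.6 in sham + Lrg1-/-, 119 and 234 in MCAO/R + WT and 27.3, 53.2 and 40.5 in MCAO/R + Lrg1-/-. No Lrg1-/- library reached its WT group. The differences were -1.02 ± 0.27 in sham (edgeR adjusted p = 0.0201) and -2.11 ± 0.31 after MCAO/R (adjusted p = 0.00191), where 20.6% and 24.7% of 14615 genes were called. The WT libraries held few such cells, 29 in MCAO/R + WT replicate 2 and 112 to 224 in the others, against 570 to 3535 in Lrg1-/- libraries, and without that replicate the difference after MCAO/R was -1.52 (adjusted p = 0.0352). That difference was lost with cells thinned to 1000 UMIs (-1.38, adjusted p = 0.231) and at a mitochondrial limit of 10% (-1.32, adjusted p = 0.132). The sham difference was lost in 6 of 26 alternatives (-0.73 at the lowest in size), among them those without sham + Lrg1-/- replicate 1 or 2 or sham + WT replicate 2 or 3. Vascular smooth muscle cells differed by -0.88 ± 0.26 in sham (adjusted p = 0.0590) and -0.51 ± 0.29 after MCAO/R (adjusted p = 0.228), and fibroblasts by -0.92 ± 0.28 after MCAO/R (adjusted p = 0.241), none called. Astrocytes differed by 0.40 ± 0.32 in sham (adjusted p = 0.561) and by -1.11 ± 0.35 after MCAO/R (adjusted p = 0.102). Beyond its sources, Pdgfd was called in 5 pairs. It was lower in Lrg1-/- border-associated macrophages (-1.35) and monocytes (-2.74) after MCAO/R and in T and NK cells after sham surgery (-1.97), lower with MCAO/R in Lrg1-/- microglia (-0.91), and higher in sham + Lrg1-/- pericytes (2.14), where the libraries held 289, 88.2 and 138 CPM against 18.8, 35.8 and 62.9 CPM in sham + WT. The last call was 1.51 (adjusted p = 0.236) without sham + Lrg1-/- replicate 1. Of all genes tested, these contrasts called 2331 of 10939 in border-associated macrophages and 425 of 8970 in monocytes. They called 1857 of 10232 in T and NK cells, 28.0% in microglia and 4.64% in pericytes. The call in microglia was lost in 13 of 26 alternatives (-1.72 to -0.54), that in monocytes in 8 of 23, in T and NK cells in 6 of 25, in border-associated macrophages in 5 of 24 and in pericytes in 7 of 26.

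Pdgfa, the ligand of PDGFR-α, was called in endothelial cells and microglia, where it was lower than in its leading sources, and in pericytes, the third of its sources. In endothelial cells it stood at 30.3, 38.2 and 35.5 CPM in sham + WT, 40.6, 42.6 and 38.8 in sham + Lrg1-/-, 19.9 and 20.1 in MCAO/R + WT and 45.2, 42.3 and 54.8 in MCAO/R + Lrg1-/-. The 2 MCAO/R + WT libraries were the lowest of all 11, and the MCAO/R + Lrg1-/- libraries did not overlap them. Endothelial Pdgfa was higher in Lrg1-/- after MCAO/R by 1.24 ± 0.15 (edgeR adjusted p = 0.000768), a 2.36-fold difference, and fell with MCAO/R in WT mice by 0.79 on the log2 scale (SE 0.15, adjusted p = 0.00488). In sham the genotypes differed by 0.23 ± 0.13 (adjusted p = 0.214), which was not called. After MCAO/R Pdgfd of the same cells differed in the opposite direction. The genotype difference after MCAO/R was called in all 26 alternatives, from 0.95 to 1.79, and the fall in WT mice was lost without MCAO/R + WT replicate 1 (-0.78, adjusted p = 0.0651). The calculation from source markers gave 25.2 CPM of the 47.4 CPM measured in MCAO/R + Lrg1-/- endothelial cells and 3.97 CPM, beside 19.9 and 20.1 CPM measured, in MCAO/R + WT.

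In microglia Pdgfa had the same directions after MCAO/R and was also called between the sham genotypes, with 29.8, 30.5 and 28.8 CPM in sham + WT, 49.9, 50.8 and 53.9 in sham + Lrg1-/-, 19.5 and 19.7 in MCAO/R + WT and 59.4, 51.5 and 46.3 in MCAO/R + Lrg1-/-. The WT and Lrg1-/- libraries were separated in both conditions. The genotype difference was 0.79 ± 0.12 in sham (edgeR adjusted p = 0.000641), where 24.4% of microglial genes were called, and 1.41 ± 0.14 after MCAO/R (adjusted p = 2.82e-05), and the fall with MCAO/R in WT mice was -0.60 ± 0.13 (adjusted p = 0.00791). The calculation from source markers gave 18.2 CPM of 53.4 CPM in MCAO/R + Lrg1-/- and 3.83 CPM of 19.1 CPM in MCAO/R + WT. Unnamed cluster 4, with Pdgfa at 58.9 CPM, was not part of these microglial values. The fall in WT mice was not called without either MCAO/R + WT library, with adjusted p of 0.0729 and 0.0637, and in 5 of 26 alternatives in all, with -0.28 (adjusted p = 0.253) at the halved cluster resolution. In pericytes Pdgfa was higher in Lrg1-/- by 1.28 ± 0.32 in sham (adjusted p = 0.0331) and by 1.22 ± 0.35 after MCAO/R (adjusted p = 0.0266), where 4.64% and 15.8% of the 11164 genes tested were called. The 3 sham + Lrg1-/- libraries held 233, 215 and 198 CPM, above the 80.2, 92.9 and 93.2 CPM of sham + WT, and after MCAO/R the genotypes overlapped. These 2 calls were lost without any single sham library for the first and without MCAO/R + Lrg1-/- replicate 2 (0.98, adjusted p = 0.104) or MCAO/R + WT replicate 2 (0.75, adjusted p = 0.304) for the second, which was 0.29 (adjusted p = 0.757) without the 2 libraries that hold Xist. Sham + Lrg1-/- pericytes held vascular smooth muscle markers at 4368.0 CPM summed over 8 genes, against 1974.3 CPM in sham + WT. In vascular smooth muscle cells and oligodendrocytes, where its mean level was highest, no contrast of Pdgfa was called, with differences from -0.49 to 0.67 and adjusted p from 0.136 to 0.817.

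The promoters of Pdgfa and Pdgfd, whose levels differed in opposite directions in Lrg1-/- endothelial cells after MCAO/R, are given below from RefSeq (GRCm38.p6), 250 bases before to 50 after a gene start. The table held 5 windows of 4 of the 6 genes, 2 of them of Pdgfa, of which the one farther upstream is printed. Capitals mark the GC box, GGGCGG on either strand, and the TATA box, TATAAA on either strand.
Pdgfa promoter (chr5:138994895-138995194, minus strand): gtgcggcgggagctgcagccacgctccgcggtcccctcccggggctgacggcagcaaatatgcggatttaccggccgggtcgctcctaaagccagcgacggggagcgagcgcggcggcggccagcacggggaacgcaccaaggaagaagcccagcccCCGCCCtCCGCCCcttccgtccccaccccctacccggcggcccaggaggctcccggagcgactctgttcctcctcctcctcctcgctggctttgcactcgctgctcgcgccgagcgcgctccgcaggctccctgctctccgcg
Pdgfd promoter (chr9:6168236-6168535, plus strand): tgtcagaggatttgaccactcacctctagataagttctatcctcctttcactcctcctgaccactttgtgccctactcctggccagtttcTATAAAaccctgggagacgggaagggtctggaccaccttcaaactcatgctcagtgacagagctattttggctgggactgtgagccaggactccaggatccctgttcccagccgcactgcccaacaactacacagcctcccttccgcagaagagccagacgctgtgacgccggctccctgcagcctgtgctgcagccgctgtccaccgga
The printed Pdgfa window was 73.3% G or C with 37 CG dinucleotides, 2 GC boxes and no TATAAA, and the Pdgfd window was 56.7% G or C with 8 CG dinucleotides, no GC box and 1 TATA box. The other Pdgfa window (chr5:138994232-138994531) was 67.0% G or C with 24 CG dinucleotides, 1 GC box and no TATAAA. Both Pdgfa windows follow RefSeq gene starts that lie inside the GENCODE M21 span given above, which on the minus strand begins at 138997370. Of 32851 promoter windows of the same length, 35.7% held a GC box and 13.6% TATAAA, and the medians were 52.7% G or C and 7 CG dinucleotides. The windows of Pdgfc and Pdgfra held neither motif. A match of letters is a description of the sequence and not of binding.

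Pdgfc, the latent ligand of PDGFR-α, rose with MCAO/R in oligodendrocytes of WT mice. It stood at 27.1, 29.2 and 23.5 CPM in sham + WT and at 50.4 and 47.5 CPM in MCAO/R + WT, and at 26.2, 25.4 and 16.4 CPM in sham + Lrg1-/- and 30.4, 30.9 and 32.8 CPM in MCAO/R + Lrg1-/-. The 2 MCAO/R + WT libraries were above all others. The rise in WT mice was 0.88 ± 0.16 (edgeR adjusted p = 0.00320), where 16.7% of oligodendrocyte genes were called. In Lrg1-/- mice the difference was 0.45 ± 0.16 (adjusted p = 0.0962). The MCAO/R genotypes differed by -0.64 ± 0.16 (adjusted p = 0.0123), which was lost without either MCAO/R + WT library (adjusted p of 0.0794 and 0.0753) and was -0.58 (adjusted p = 0.0725) without the 2 libraries that hold Xist. It was lost in 7 of 26 alternatives, with -0.24 (adjusted p = 0.401) for clusters without batch correction, -0.27 (adjusted p = 0.257) at the halved cluster resolution and -0.42 (adjusted p = 0.101) at a limit of 1% hemoglobin UMIs. In choroid plexus epithelial cells Pdgfc was lower in Lrg1-/-, at 9.48, 8.49 and 10.5 CPM against 26.8, 27.9 and 29.3 CPM in sham (-1.56 ± 0.25, adjusted p = 0.00238). After MCAO/R it stood at 7.57, 13.5 and 13.9 CPM against 21.1 and 34.9 CPM (-1.21 ± 0.31, adjusted p = 0.0137), a difference that was -0.83 (adjusted p = 0.174) without MCAO/R + WT replicate 2 and -0.25 (adjusted p = 0.815) at a mitochondrial limit of 10%. Border-associated macrophages, astrocytes and vascular smooth muscle cells, its other sources, gave no call in the 4 contrasts, with adjusted p from 0.171 upward. In endothelial cells Pdgfc rose with MCAO/R in WT mice by 2.59 ± 0.47 (adjusted p = 0.00457), from 1.48, 0.773 and 0.876 CPM to 6.47 and 6.06 CPM. With cells thinned to 1000 UMIs the rise was 1.17 (adjusted p = 0.29). Venous sub-cluster 8, which held the highest Pdgfc of the endothelial sub-clusters after MCAO/R but not in sham, had 1.29 ± 0.934 CPM (SD, n = 3) in sham + WT, 3.16 ± 2.69 (n = 3) in sham + Lrg1-/-, 19.5 ± 0.283 (n = 2) in MCAO/R + WT and 18.3 ± 9.77 (n = 3) in MCAO/R + Lrg1-/-, which was not tested. Endothelial Pdgfc was also called higher in sham + Lrg1-/- endothelial cells (1.42 ± 0.46, adjusted p = 0.0474) with overlapping libraries, a call lost in 13 of 26 alternatives (0.51 to 1.75).

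Of the receptors, Pdgfra takes the signal of PDGF-A and PDGF-C in oligodendrocyte precursor cells and fibroblasts. Both were rare, with 212 and 366 cells in all 11 libraries. In fibroblasts it stood at 498, 271 and 312 CPM in sham + WT, 354 and 379.8 in MCAO/R + WT and 224 and 107 in MCAO/R + Lrg1-/- (replicates 2 and 5). No sham + Lrg1-/- library held 20 fibroblasts. The MCAO/R genotypes did not overlap and differed by -1.13 ± 0.40 (edgeR adjusted p = 0.291), which was not called. In oligodendrocyte precursor cells only 4 libraries entered, with 189.6 CPM in sham + Lrg1-/-, 473 in MCAO/R + WT and 281 and 296 in MCAO/R + Lrg1-/-, with MCAO/R + WT at 1 library, so that no test of genotype is given here. In fibroblasts 0.287% of 8706 genes were called in this contrast. In choroid plexus epithelial cells Pdgfra stood at 12.1, 10.2 and 9.95 CPM in sham + WT and 32.0 and 29.3 CPM in MCAO/R + WT, a rise of 1.52 ± 0.30 (adjusted p = 0.0288), where 1.16% of genes were called. It stood at 11.8, 16 and 8.68 CPM in MCAO/R + Lrg1-/-, which was -1.33 ± 0.28 against WT (adjusted p = 0.00567). In the other cell types the highest group mean of Pdgfra was 7.1 CPM, in sham + Lrg1-/- pericytes, followed by 5.46 CPM in sham + Lrg1-/- astrocytes. Among these cell types 4 calls were higher in Lrg1-/-, with libraries at 4.19 CPM or less, in oligodendrocytes in both conditions (2.45 in sham and 2.66 after MCAO/R) and in endothelial cells (1.79) and microglia (2.10) after sham surgery. The 3 sham calls were lost in 11 of 25, 13 of 25 and 10 of 24 alternatives in the same order of cell types, and the call after MCAO/R in 3 of 25. With the replicate block the sham value in oligodendrocytes was 2.14 (adjusted p = 0.168). The WT rise in choroid plexus epithelial cells was lost without any of the 5 WT libraries, and the genotype difference without MCAO/R + WT replicate 1 (adjusted p = 0.0682).

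Pdgfrb, the receptor that recruits mural cells, was lower in Lrg1-/- pericytes. It stood at 763, 872 and 997 CPM in sham + WT and at 698, 652 and 593 CPM in sham + Lrg1-/-. After MCAO/R it stood at 1028 and 1063 CPM in WT and at 486, 681 and 652 CPM in Lrg1-/-. All 6 Lrg1-/- libraries were below all 5 WT libraries. The difference after MCAO/R was -0.78 ± 0.22 (edgeR adjusted p = 0.0235), a fall to 0.582 of the WT level, and that in sham was -0.44 ± 0.20 (adjusted p = 0.240), which was not called. MCAO/R gave differences of 0.25 ± 0.21 in WT (adjusted p = 0.805) and -0.09 ± 0.20 in Lrg1-/- mice (adjusted p = 0.893). The call after MCAO/R was lost without MCAO/R + Lrg1-/- replicate 1 (-0.64, adjusted p = 0.0510), MCAO/R + WT replicate 1 (-0.81, adjusted p = 0.0829) or MCAO/R + WT replicate 2 (-0.77, adjusted p = 0.151), and was -0.74 (adjusted p = 0.116) without the 2 libraries that hold Xist and -0.34 (adjusted p = 0.493) with cells thinned to 1000 UMIs. Other pericyte markers were lower as well: after MCAO/R 4 of 8 were called lower and none higher, among them Art3 (-2.01 ± 0.35, adjusted p = 0.00250) and Abcc9 (-1.30 ± 0.27, adjusted p = 0.00529), and in sham 3 of 8, with Abcc9 at -1.53 ± 0.26 (adjusted p = 0.00454). The remaining markers were not called, and in sham Rgs5 alone of the 8 had a higher value (0.43 ± 0.21, edgeR adjusted p = 0.284). Of all pericyte genes tested 6.5% were called lower after MCAO/R and 1.92% in sham. Choroid plexus epithelial markers in these pericytes summed to 1316.4 CPM in sham + WT, 21839.2 in sham + Lrg1-/-, 271 in MCAO/R + WT and 30564.0 in MCAO/R + Lrg1-/-, and the part of these RNAs in the lower Pdgfrb was not tested. In vascular smooth muscle cells Pdgfrb gave no call, with a genotype difference of -0.63 ± 0.38 after MCAO/R (adjusted p = 0.255) and overlapping libraries. In endothelial cells it was called higher in sham + Lrg1-/- (1.44 ± 0.38, adjusted p = 0.0221), at 5.01, 6.41 and 12.8 CPM against 3.35, 2.06 and 3.44 CPM, where the level computed from source markers was 12.3 CPM. This call was lost in 9 of 26 alternatives (0.39 to 1.63).

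**Figure D5:**
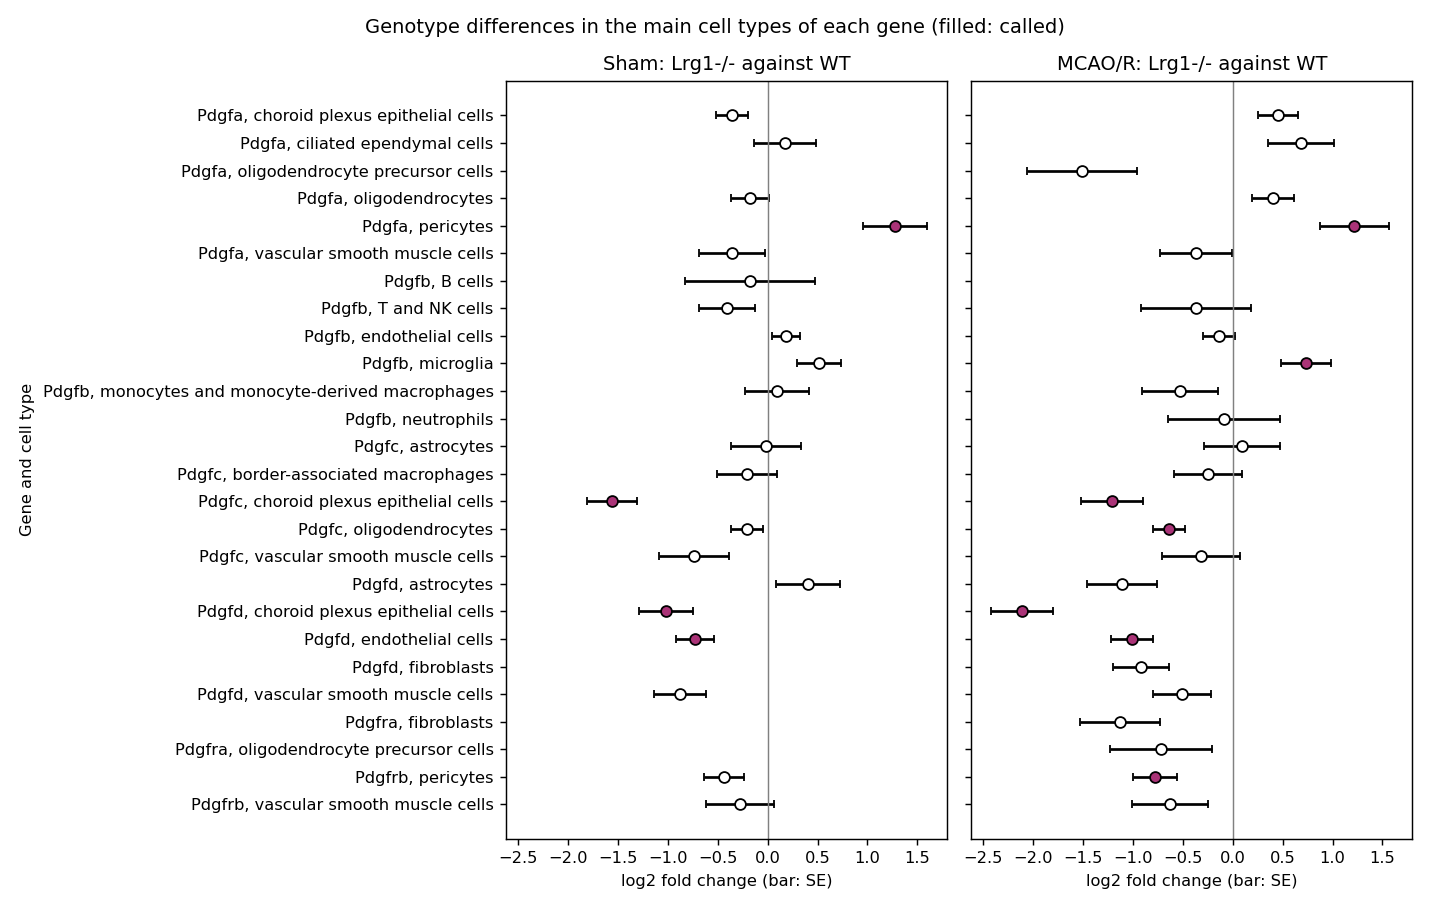
Genotype differences (log2 fold change of Lrg1-/- against WT, horizontal axes) in the main cell types of each PDGF gene after sham surgery (left) and MCAO/R (right). Bars are SE and filled points were called. After MCAO/R the called differences are Pdgfa of pericytes (1.22) and Pdgfb of microglia (0.73) on the higher side, and Pdgfc of choroid plexus epithelial cells (-1.21) and oligodendrocytes (-0.64), Pdgfd of choroid plexus epithelial cells (-2.11) and endothelial cells (-1.01) and Pdgfrb of pericytes (-0.78) on the lower side.

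Whether the response to MCAO/R differed between the genotypes was tested as an interaction in 12 cell types. None of the 61 pairs was called with edgeR, where 0.566% of all tests were called higher and 0.461% lower, 13 pairs had an unadjusted p under 0.05 and DESeq2 called 2 pairs. The smallest adjusted p were those of Pdgfa in microglia (0.62 ± 0.18, edgeR adjusted p = 0.0510) and in endothelial cells (1.01 ± 0.19, edgeR adjusted p = 0.0565). For endothelial Pdgfb, endothelial Pdgfa and pericyte Pdgfrb, a change called in only 1 genotype or condition was therefore not shown to differ from the change in the other. Endothelial Pdgfd was called between genotypes in both conditions, and its genotype difference was not shown to differ between them.

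Of the 52 listed genes of PDGF processing and signaling, all 52 were tested in endothelial cells. After MCAO/R, 5 were higher and 12 lower in Lrg1-/- endothelium (32.7%, against 26.6% of all endothelial genes called), with a median of -0.157 against 0.0565 for all genes, and in sham 2 were higher and 13 lower (28.8% against 22.0%, median -0.251 against 0.0341). Plat, the tissue plasminogen activator that releases PDGF-C, was lower in both (-1.57 and -0.93), and Spry1, an inhibitor of receptor signaling, was lower after MCAO/R (-1.01). With MCAO/R, endothelial Plat rose in WT mice (0.94) and Spry4 rose in both genotypes (1.30 and 1.28). In pericytes, the receiving cells, 2 of 49 tested genes were higher and 6 lower in Lrg1-/- after MCAO/R (16.3%, against 15.8% of all pericyte genes), among them the adaptor Gab1 (-1.79) and the ubiquitin ligase Cbl (-1.18), with Thbs1 higher (2.24), and in sham only Gab1 was called (-1.48), which is 2.04% of the list against 4.64% of all genes. In fibroblasts edgeR called none of 47 tested genes between the MCAO/R genotypes or with MCAO/R in WT mice, contrasts that called 0.287% and 0.368% of all genes, and 7 of the 47 had an unadjusted p under 0.05 in each. In oligodendrocytes 8 were higher and 10 lower in Lrg1-/- after MCAO/R (34.6%, as of all oligodendrocyte genes), with Plat at -1.70, and in microglia 6 were higher and 11 lower (32.7% against 32.1%). In these cell types and in pericytes the shares were near those of all genes. Thbs1 was called higher in Lrg1-/- after MCAO/R in oligodendrocytes (4.65), microglia (1.95) and endothelial cells (2.73) as well as in pericytes. The interaction called 6 of the 52 genes in microglia (11.5%, against 7.82% of all 17048 microglial genes), with Nrp1 (1.41), Thbs1 (2.15) and Hras (1.07) among those higher and Stat5a (-1.41) lower. The medians and counts describe the list and were not tested against other genes.

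Over the 17 cell types, the genes whose log2 profile was most like each member were, by Pearson correlation among 12568 genes, Mcam (0.882) for Pdgfa, Elk3 (0.927) for Pdgfb, Nacc2 (0.762) for Pdgfc, Id3 (0.951) for Pdgfd, Adcy1 (0.913) for Pdgfra and Heyl (0.957) for Pdgfrb. Also among the most alike were Gm10687 (0.856) and Hdac11 (0.847) for Pdgfa, Arhgap27 (0.899) and F11r (0.893) for Pdgfb, Arhgef19 (0.717) and Samd4 (0.717) for Pdgfc, Id1 (0.935) for Pdgfd, Snhg11 (0.866) and Gria3 (0.862) for Pdgfra, and Pcdh18 (0.954) and Carmn (0.950) for Pdgfrb. The points of these correlations share libraries and are given as a description.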

How the data were processed

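Single-cell libraries were prepared by the authors with 10x Genomics 3′ chemistry after red blood cell lysis, and the authors deposited unnormalized UMI counts for each gene and barcode, made by Cell Ranger with the mm10 genome (the matrix headers name version 7.0.1). Labels number the libraries within groups, and the study describes 11 mice, so that each library was taken as 1 mouse. Cells with more than 500 genes, more than 1000 UMIs and less than 25% mitochondrial UMIs were kept. Doublets were scored by simulation, with an automatic threshold in 5 of 11 libraries and the highest-scoring 6% elsewhere. Cells were clustered on 15 components of 2000 variable genes, with 3 neighbors taken from each library (Leiden, resolution 2, igraph 0.11.9, leidenalg 0.10.2, Python 3.11.15), and clusters were named from marker lists, with naming rules and resolution set after clusters had been seen. The rule of 20% of the highest level for main cell types was also set after levels had been seen.

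Counts were summed per library and cell type with at least 20 cells and tested with edgeR 4.0.16 in R 4.3.3 (TMM, quasi-likelihood, low counts filtered, all groups in 1 fit). Alternatives were DESeq2 1.42.0, other size factors, no low-count filter, at least 10 or 50 cells, other clusterings, doublets kept, stricter limits on mitochondrial and hemoglobin UMIs, cells thinned to 1000 UMIs, a replicate block and each library left out. p-values are two-sided. On simulated counts for the MCAO/R genotype contrast of endothelial cells, 47 of 50 genes raised 3-fold and 17 of 50 raised 2-fold were called, as were 4 of 16207 unchanged genes. Of genes lowered to 0.5 and 0.333 of their level, 25 of 50 and 48 of 50 were called. The simulation gave every gene the same dispersion and held no RNA of other cell types and no cluster differences. Its calls among unchanged genes are therefore not the rate of false calls in these data. The 6 genes, the gene lists and the named pairs were chosen with earlier results of these data known. For the signaling list the text names genes called with the smallest adjusted p, 4 at most per contrast and cell type. Thbs1 is given for further cell types in which it was called. The 3 genes most like a member are those with the highest Pearson correlation. Some genes that these rules choose are not reported here, though counts and medians over the list include them. CPM in the comparisons are TMM-adjusted, and in the levels by cell type they are plain.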

Additional observations from a re-analysis of the deposited data

Results flagged for a closer look

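No PDGF gene passed the test of a different response to MCAO/R in the 2 genotypes. Of the listed signaling genes named above, 4 passed it in microglia with edgeR's quasi-likelihood test, in which 52 listed genes were tested and 7.82% of all 17048 microglial genes were called. Nrp1, a co-receptor, differed in its response by 1.41 ± 0.22 on the log2 scale (adjusted p = 0.00447), with -1.43 in WT and -0.02 in Lrg1-/- mice. Thbs1, a matrix protein that binds PDGF, differed by 2.15 ± 0.43 (adjusted p = 0.0124), with -1.02 in WT and 1.13 in Lrg1-/- mice. The higher Thbs1 of Lrg1-/- mice after MCAO/R was not particular to microglia (1.95). It was also called in oligodendrocytes (4.65), astrocytes (4.23), endothelial cells (2.73) and pericytes (2.24), but not in vascular smooth muscle cells or fibroblasts. In oligodendrocyte precursor cells the difference was 3.84, with 1 library in MCAO/R + WT. Hras, a GTPase downstream of receptor kinases, differed by 1.07 ± 0.26 (adjusted p = 0.0285), with 0.14 in WT and 1.21 in Lrg1-/- mice. Stat5a, a transcription factor, differed by -1.41 ± 0.30 (adjusted p = 0.0158), with 0.26 in WT and -1.15 in Lrg1-/- mice. Microglia of the 4 groups lay mostly in different clusters, whose part in these values was not tested.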

How the results depend on the processing

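Over 14 alternatives with all libraries, 11 fits that each left out 1 library and 1 setting added later, none of the called pairs of PDGF gene and cell type changed direction. With the setting added after the data had been seen, the 2 libraries that hold Xist left out, the MCAO/R genotype contrast called 10 pairs in place of 18 and the interaction 3 in place of 0. With cells thinned to 1000 UMIs the counts were 6 for the MCAO/R genotype contrast, 2 for the sham genotype contrast (17 as reported), 0 for MCAO/R in WT (8) and 3 for MCAO/R in Lrg1-/- mice (5). Without a filter on low counts they were 28 for the sham genotype contrast, 12 for MCAO/R in Lrg1-/- mice and 4 for the interaction, and with DESeq2 10 for MCAO/R in Lrg1-/- mice and 2 for the interaction. Clusters without batch correction gave 10, 8 and 1 for the sham genotype contrast, MCAO/R in Lrg1-/- mice and the interaction, and a limit of 1% hemoglobin UMIs per cell gave 9, 8 and 1. The interaction called 1 pair at the lower resolution, 2 with doublets kept and 1 with a mitochondrial limit of 10%. The cause of these moves was not tested, except that thinning leaves fewer counts.

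Leaving out 1 library gave 5 to 21 pairs for the MCAO/R genotype contrast (5 without MCAO/R + WT replicate 2), 4 to 19 for the sham genotype contrast (9 and 5 without Lrg1-/- replicates 2 and 5, 7, 4 and 4 without WT replicates 1, 2 and 3), 3 to 9 for MCAO/R in WT mice (5 without each sham + WT replicate, 4 and 3 without MCAO/R + WT replicates 1 and 2), 2 to 6 for MCAO/R in Lrg1-/- mice (2 without sham replicate 2 or MCAO/R replicate 5 and 3 without MCAO/R replicate 2) and 0 to 1 for the interaction. With the replicate number as a replicate block the counts were 15, 7, 5, 4 and 0 in the order of genotype after MCAO/R, genotype after sham, MCAO/R in WT, MCAO/R in Lrg1-/- and interaction. Deviations of same-numbered sham and MCAO/R libraries correlated from -0.403 to 0.204 in endothelial cells, from -0.044 to 0.163 in microglia and from 0.131 to 0.498 in oligodendrocytes. The libraries come from different mice and the correlations were above 0.1 throughout only in oligodendrocytes, so the numbers were not taken to pair mice. Of the 6 PDGF calls in oligodendrocytes the block ended that of Pdgfra in sham.

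Plain library totals in place of TMM moved the median of all genes by 0.825 in red blood cells with MCAO/R in Lrg1-/- mice and by less elsewhere, with -0.296 in choroid plexus epithelial cells and -0.282 in neutrophils between the MCAO/R genotypes, 0.155 in sham microglia and -0.145 in sham pericytes, and turned no called PDGF difference. Groups of 2 or 3 mice, 28 pericytes in a library and 212 oligodendrocyte precursor cells in all limited what could be seen.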

Other observations

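The 4 clusters without a cell type name held PDGF transcripts too. Unnamed cluster 4, of 5462 cells led by Lilr4b, Ifi207 and Adam8, held Pdgfb at 201 CPM (88.9 to 265 over 9 libraries), and 2495 of its cells came from MCAO/R + WT and 2775 from MCAO/R + Lrg1-/-. It supplied 19.9% and 22.2% of all Pdgfb UMIs in these groups. Unnamed cluster 1, of 9432 cells led by Spp1, Arg1 and Lpl, held Pdgfb at 89.5 CPM (50.6 to 107 over 9 libraries), and 8964 of its cells came from MCAO/R + Lrg1-/-. Unnamed cluster 34, of 296 cells led by Rgs5, Gkn3 and Higd1b, held both ligands and receptor, with Pdgfd at 329 CPM (164 to 566 over 6 libraries), Pdgfb at 205 CPM (140 to 259) and Pdgfrb at 238 CPM (187 to 282). Rgs5 and Higd1b are listed pericyte markers and Gkn3 is a listed arterial endothelial marker. Whether this cluster holds remaining doublets was not tested. Unnamed cluster 35, of 267 cells led by Lysmd4 and Slc24a1, held Pdgfb at 196 CPM (153 to 281 over 4 libraries) and Pdgfrb at 0. These clusters entered no comparison.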
